A study of Mus musculus with 30 samples.

Results

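The genes described here are 60 genes of the cell division cycle, of 43629 genes counted in each library. They were taken from a list of mouse symbols, matched to the Ensembl identifiers of the count files, and all 60 were found. By role they comprise 10 regulators of the entry from G1 into S phase, 6 inhibitors of cyclin-dependent kinases (CDKs), 16 genes of DNA replication, 14 regulators of mitosis and 14 genes of chromosomes, the spindle and cytokinesis. RNA came from hearts of wild-type C57BL/6J mice 2, 4 or 7 days after an operation that opened the chest and tied off a coronary artery (myocardial infarction, MI), or after the same operation without the tie (sham). Each day thus had an MI and a sham group, 6 in all, with 5 libraries in each. The labels do not state which part of the heart was taken or that the replicates of a group are separate animals, so that p-values measure the spread between these libraries.

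Cells divide by switching on cyclins in turn, each of which activates a CDK: D-type and E-type cyclins drive entry into S phase, A-type and B-type cyclins drive S phase and mitosis. E2F factors switch on the replication genes, and a later group of factors that includes B-Myb (Mybl2) and Foxm1 switches on the mitotic genes. Adult heart muscle cells rarely divide, whereas leukocytes, fibroblasts and endothelial cells can divide after injury. In RNA from whole tissue, more or fewer cells of a type and more or less RNA per cell cannot be told apart.

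Library totals ran from 7841930 to 14070017 counts, and levels are given as CPM, the count of a gene scaled to the total count of its library. Where a library had 0 counts of a gene, a level of up to 3 counts (0.213 to 0.383 CPM, depending on the library) is allowed by counting error alone. The cardiomyocyte markers Myh6, Tnnt2, Tnni3, Actc1, Ryr2 and Pln summed to 28734 to 58322 CPM in every library. Transcripts of lung, Sftpc plus Scgb1a1 at 50 CPM or more, were present in 6 libraries: sham day 4 replicates 2 and 3, sham day 7 replicates 1, 2 and 3, and MI day 7 replicate 2. Markers of fast skeletal muscle summed to 2895 CPM in MI day 7 replicate 4, against 374 to 1338 CPM in the other MI libraries of that day. Libraries of day 2 carry another run identifier in the labels than those of days 4 and 7, so that run and day cannot be told apart in comparisons with day 2.

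The promoters are shown first because replication and mitosis genes are known to be switched on through different short elements. RefSeq (build GRCm38.p6) gave a promoter window, from 250 bases before to 50 after the start of the gene, for 48 of the 60 genes. Some genes had several starts, which made 56 windows, and a gene held an element where any of its windows did. For printing, the window with the lowest coordinate was used. The elements searched, on both strands and with overlaps allowed, were the cell cycle homology region (TTTGAA or TTCGAA), the CCAAT box (CCAAT), and an E2F element (TTTCCCGC, TTTCGCGC, TTTGCCGC or TTTGGCGC). The 160 bases before the start are printed 5′ to 3′ for 7 genes, with matches in capitals. These 7 were chosen after their matches were seen, so they are examples and not typical of their classes. Cdk1 lies at chr10:69352913-69353072 (minus strand), Prc1 at chr7:80294291-80294450 (plus), Ube2c at chr2:164769769-164769928 (plus) and Kif11 at chr19:37376222-37376381 (plus). The replication genes are Mcm5 at chr8:75109349-75109508 (plus) and Mcm6 at chr1:128359706-128359865 (minus), and the inhibitor gene Cdkn2b lies at chr4:89311033-89311192 (minus).
Cdk1: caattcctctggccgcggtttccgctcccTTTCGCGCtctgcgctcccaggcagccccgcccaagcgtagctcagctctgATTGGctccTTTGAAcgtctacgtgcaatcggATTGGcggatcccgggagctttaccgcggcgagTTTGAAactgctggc
Prc1: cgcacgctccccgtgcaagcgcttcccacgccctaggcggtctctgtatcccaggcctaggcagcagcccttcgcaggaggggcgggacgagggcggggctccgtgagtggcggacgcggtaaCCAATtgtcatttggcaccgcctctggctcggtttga
Ube2c: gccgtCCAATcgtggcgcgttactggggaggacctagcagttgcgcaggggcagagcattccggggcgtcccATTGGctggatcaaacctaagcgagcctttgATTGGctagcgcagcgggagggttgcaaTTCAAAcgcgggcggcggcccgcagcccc
Kif11: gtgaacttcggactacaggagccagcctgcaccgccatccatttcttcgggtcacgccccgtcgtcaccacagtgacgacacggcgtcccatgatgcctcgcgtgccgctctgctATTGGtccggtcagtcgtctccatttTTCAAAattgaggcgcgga
Mcm5: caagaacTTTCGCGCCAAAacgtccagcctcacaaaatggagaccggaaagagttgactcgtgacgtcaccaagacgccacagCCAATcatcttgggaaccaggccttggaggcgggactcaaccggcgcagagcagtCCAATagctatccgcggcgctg
Mcm6: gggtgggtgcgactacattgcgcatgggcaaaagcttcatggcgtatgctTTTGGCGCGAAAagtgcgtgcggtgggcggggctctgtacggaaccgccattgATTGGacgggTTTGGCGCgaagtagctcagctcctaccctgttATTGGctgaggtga
Cdkn2b: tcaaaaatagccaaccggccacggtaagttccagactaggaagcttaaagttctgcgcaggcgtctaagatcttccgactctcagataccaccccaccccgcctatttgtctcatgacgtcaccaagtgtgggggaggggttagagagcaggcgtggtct

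In the printed stretch Cdk1 held 2 cell cycle homology matches, 2 CCAAT boxes and 1 E2F match. Ube2c held 1 cell cycle homology match and 3 CCAAT boxes, Kif11 1 of each, and Prc1 only a CCAAT box. The printed stretch ends within a cell cycle homology match of Prc1, which ran from 5 bases before the start to base 1. Counted from the other RefSeq start of Prc1, this match lay 30 to 25 bases before the start. Mcm5 and Mcm6 held 2 and 3 E2F matches, 2 CCAAT boxes each and no cell cycle homology match, and Cdkn2b held none of the 3 elements in full. A cell cycle homology match of Cdkn2b, from 161 to 156 bases before the start, was cut by the edge of the printed stretch. Over the whole windows, 17 of the 23 mitosis genes with a promoter (73.9%) held a cell cycle homology match, against 2 of 13 replication genes and 21.7% of all 27025 genes. An E2F match was present in 7 of 13 replication genes (53.8%), in 1 of 23 mitosis genes and in 2.6% of all genes. CCAAT boxes were present in 18 of 23 mitosis genes and 9 of 13 replication genes, against 41.1% of all genes. In the 250 bases before the start alone, the share of mitosis genes with a cell cycle homology match was 43.5% and that of all genes 19.6%. A match is a description of the letters and not of binding.

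**Figure D1:**
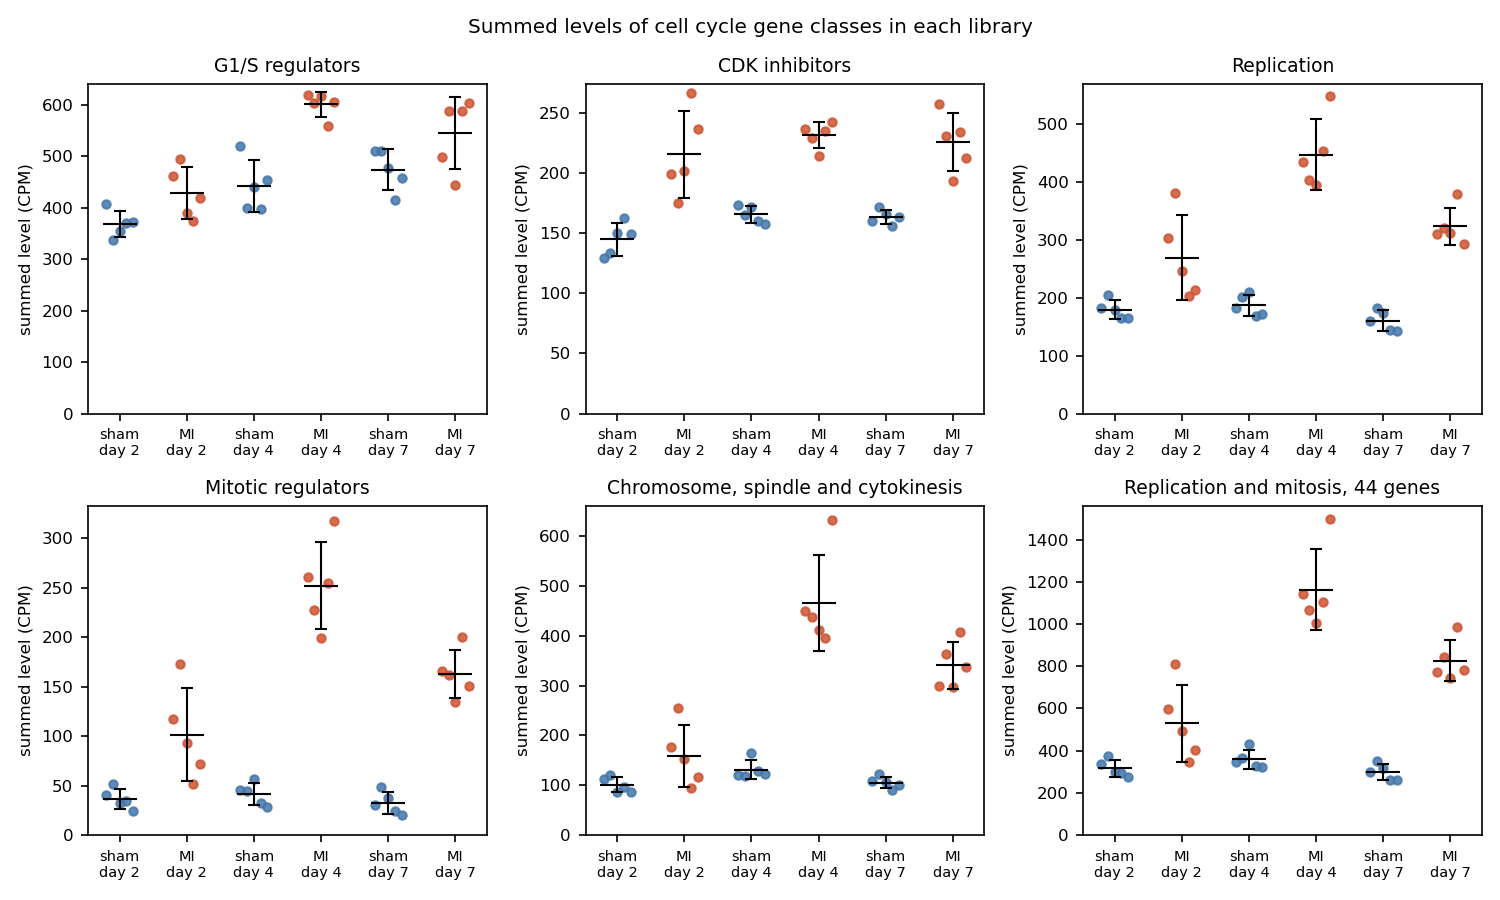
Summed level (CPM) of each class of cell cycle genes in each of the 30 libraries (points; blue sham, orange MI) by group, with the mean and SD over 5 libraries (bars). The last panel sums 44 replication and mitosis genes, which lay between 1006 and 1498 CPM in MI hearts at day 4 and between 323 and 432 CPM in the sham hearts of that day.

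The comparison of MI with sham hearts asks which cell cycle genes differed at each day. Most replication and mitosis genes rose in MI hearts at all 3 days, 39 of 44 at day 2 and 41 of 44 at days 4 and 7. The median log2 fold change of these 44 was 1.19, 2.21 and 2.06, that of the 10 G1/S regulators 0.42, 0.56 and 0.58, and the inhibitors went in both directions. At day 2, 47 of the 59 genes tested rose and 3 fell, against 24.1% and 22.2% of all 14524 genes tested. At day 4, 53 of 59 rose and 3 fell, against 27.5% and 25.2%, and at day 7, 52 of 60 rose and 3 fell, against 28.4% and 26.6%. The median log2 fold change of the tested genes was 1.07, 1.98 and 1.83 at days 2, 4 and 7, and that of all genes tested -0.005, 0.006 and 0.012. The test was edgeR's quasi-likelihood F test (2-sided), and a gene was called, or said to rise or fall, where its p, adjusted by Benjamini and Hochberg's method across every gene in the test, was under 0.05.

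The fits scale libraries by TMM factors, which the CPM values do not include. With library totals only, an alternative added after the data were seen, the median log2 fold change of all genes tested was 0.088, 0.183 and 0.208 at days 2, 4 and 7, and the share of called genes that were higher was 65.1%, 71.2% and 70.4% in place of 52%, 52.2% and 51.6%. For MI hearts of day 4 against day 2 that share was 64.7% in place of 52.2%. For the changes of the MI effect from day 2 to day 4, day 2 to day 7 and day 4 to day 7 it was 67.6%, 65.6% and 56.4% in place of 52.3%, 52.7% and 69%. Of the 60 genes, 47, 54 and 53 then rose and 2, 1 and 1 fell, so that of the genes that fell only Cdkn1c was called lower at each day under both scalings.

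The values of the MI and sham libraries did not overlap, MI higher, for 21 of the tested genes at day 2, 51 at day 4 and 52 at day 7, against 20.3%, 28.2% and 29.3% of all genes. At day 2 the values of most genes overlapped, and MI replicate 4 often lay within the sham range. Without the libraries with lung transcripts, 53 genes rose at day 4 and 50 at day 7, and 4 and 1 fell. The number that fell was also 5 at day 2 without MI replicate 3, and 1 at day 7 without 1 of sham replicates 3 and 5 and MI replicates 3 and 4.

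**Figure D2:**
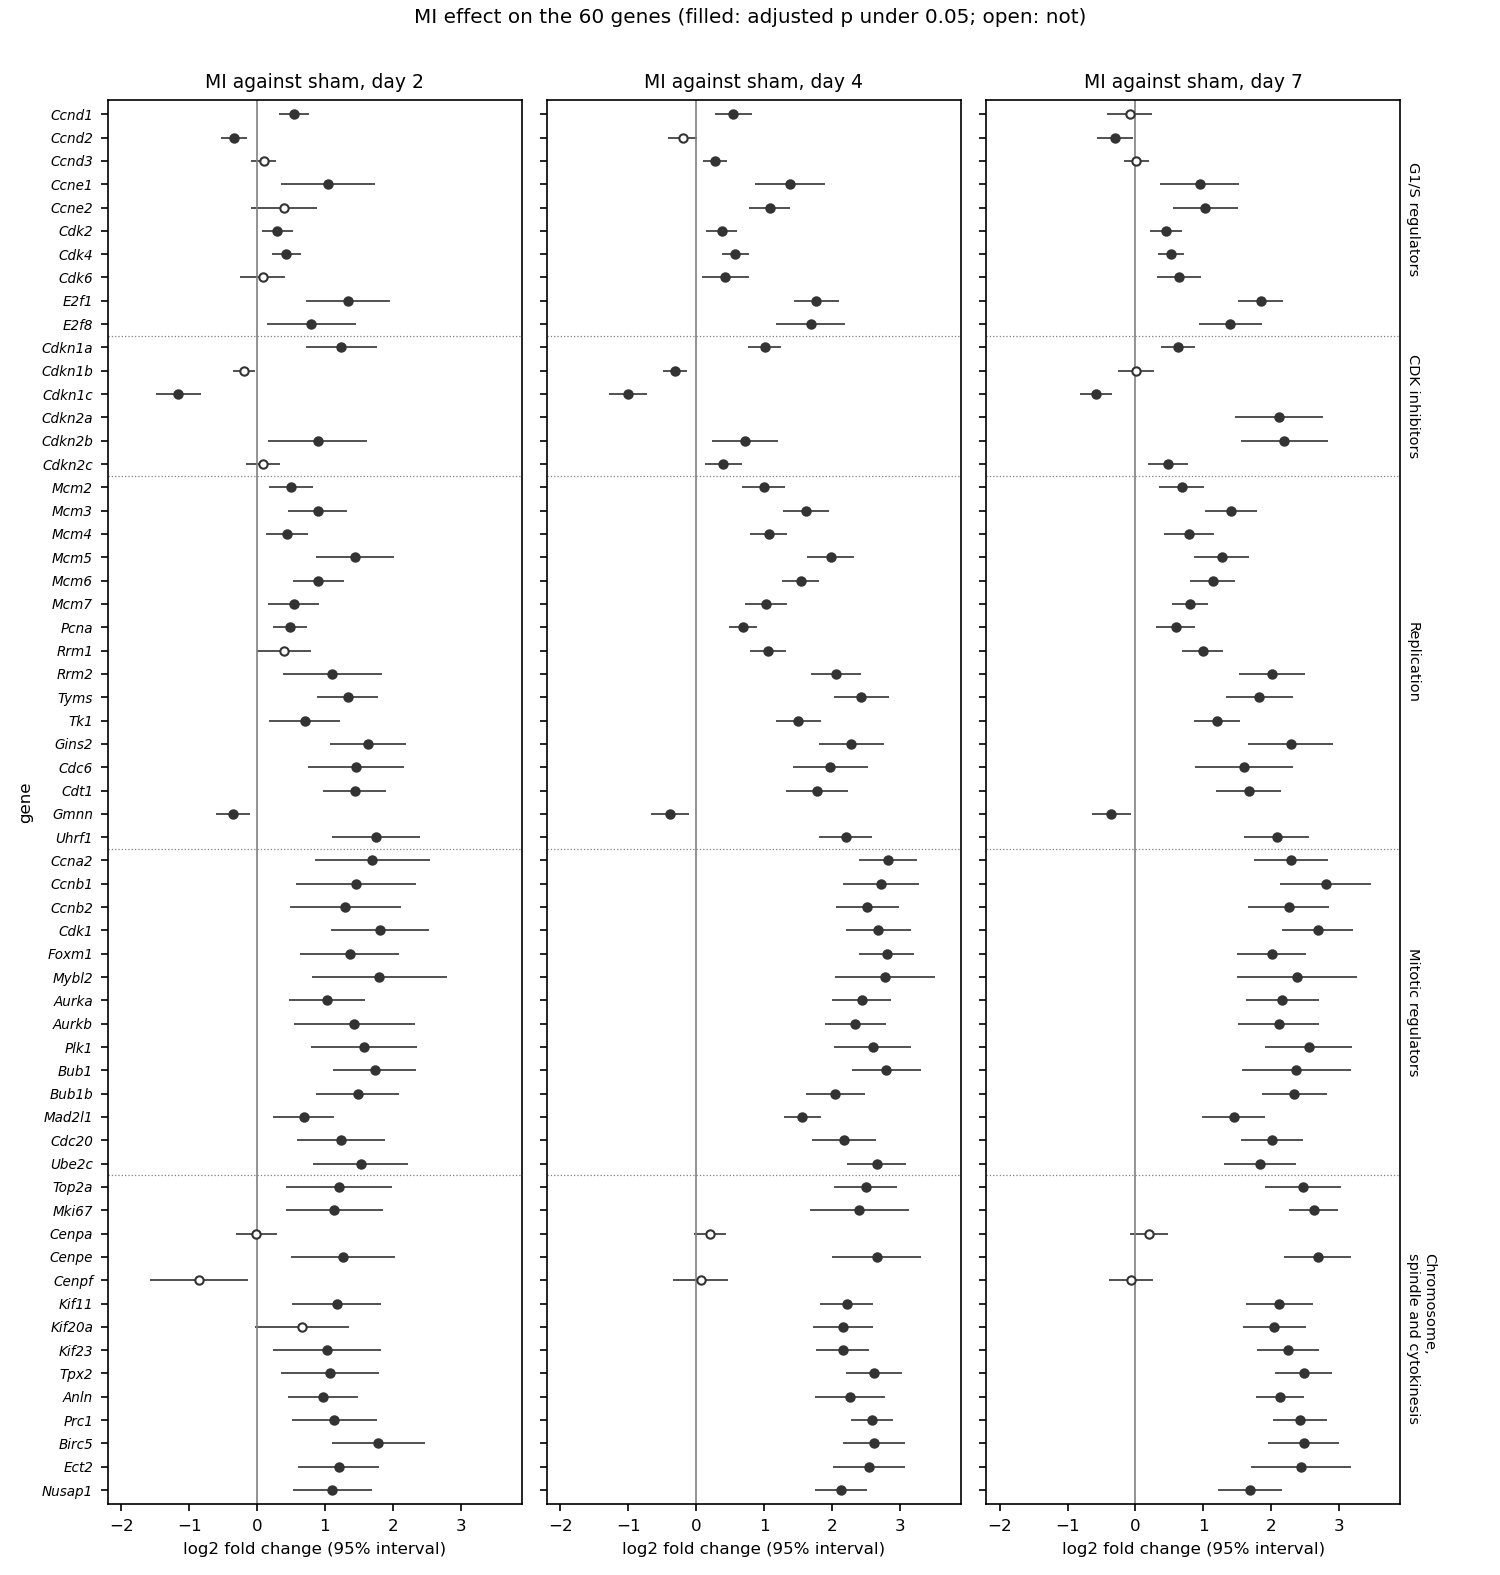
Log2 fold change of MI against sham for each gene (rows, by class) at days 2, 4 and 7, with 95% intervals; filled points have an edgeR adjusted p under 0.05. Nearly every replication and mitosis gene lies to the right of 0 at days 4 and 7, and Gmnn, Cenpa and Cenpf stand apart from their classes.

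Among the G1/S regulators, 6 of 10 rose at day 2, 9 at day 4 and 7 at day 7. Cyclin D1 (Ccnd1) and cyclin D2 (Ccnd2), which pair with Cdk4 and Cdk6 and link growth signals to the cycle, went apart. Ccnd1 read 76.1, 57.1, 60.8, 66.0 and 62.5 CPM in the sham and 116, 119, 91.5, 79.7 and 98.1 CPM in the MI libraries of day 2, and the groups did not overlap. It rose by 0.55 ± 0.10 (log2, SE; n = 5 and 5; edgeR adjusted p = 0.000569) at day 2 and by 0.55 ± 0.13 (edgeR adjusted p = 0.00262) at day 4. At day 7 its log2 difference was -0.09 ± 0.15 (adjusted p = 0.664): sham libraries had 104 to 151 CPM by then and MI libraries 92.2 to 161 CPM. The mean CPM was the other way, 138 in MI and 128 in sham libraries, and scaled by library totals only the difference was 0.11 (edgeR adjusted p = 0.586).

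The sham level of Ccnd1 was itself higher at day 4 than at day 2, by 0.68 ± 0.14 (edgeR adjusted p = 0.000654). Its MI effect was smaller at day 7 than at day 2, by -0.61 ± 0.20 (edgeR adjusted p = 0.0318), a call that was lost with library totals only (adjusted p = 0.0777), on leaving out any 1 of 8 libraries (sham day 2 replicate 2, MI day 2 replicates 1 and 2, sham day 7 replicates 1, 2 and 3, MI day 7 replicates 1 and 3; adjusted p up to 0.0638) and without the libraries with lung transcripts (adjusted p = 0.24). Ccnd2 fell at day 2, by 0.34 ± 0.09 (edgeR adjusted p = 0.00657), from 138 to 178 CPM in sham to 113 to 146 CPM in MI libraries. At day 4 its difference was -0.20 ± 0.10 (adjusted p = 0.108), and at day 7 -0.31 ± 0.12 with an edgeR adjusted p of 0.0496, which was lost on leaving out any 1 of 7 of the 10 libraries, all but sham replicate 4 and MI replicates 2 and 5 (adjusted p up to 0.114). Without the libraries with lung transcripts Ccnd2 passed at day 4 (-0.30, adjusted p = 0.0389) and not at day 7 (-0.38, adjusted p = 0.151), and with library totals only it was not called at day 7 either (-0.11, adjusted p = 0.483). Levels per kilobase were divided by the combined length of all annotated exons of a gene, which can exceed that of its transcripts. Comparisons of such levels between genes depend on this annotation. On this scale sham hearts of day 2 held 13.7 ± 1.5 CPM (SD, n = 5) of Ccnd1 and 16.7 ± 1.8 of Ccnd2. Sham hearts of day 4 held 22.3 ± 5.1 and 20.2 ± 2.4, and MI hearts of day 4 held 36.9 ± 3.8 and 19.8 ± 2.1. By group mean, Ccnd1 made up 22.8%, 29.1% and 32.5% of the D-type cyclin counts in sham hearts of days 2, 4 and 7. In MI hearts of these days it made up 33.1%, 38.8% and 34.4%. Cyclin D3 (Ccnd3) rose at day 4, by 0.28 ± 0.08 (edgeR adjusted p = 0.011), and differed by 0.10 and 0.01 at days 2 and 7 (adjusted p = 0.358 and 0.894).

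E2f1, the activating factor for replication genes, had the largest change of this class. It read 3.20, 3.58, 1.54, 2.78 and 1.32 CPM in sham and 7.41, 10.8, 6.79, 3.84 and 5.12 CPM in MI libraries of day 2, without overlap. Its log2 fold changes were 1.34 ± 0.29, 1.77 ± 0.16 and 1.84 ± 0.16 at days 2, 4 and 7 (edgeR adjusted p = 0.00183, 5.75e-07 and 2.16e-06), a 2.53-fold to 3.59-fold difference. E2f8, a repressor of the same family that acts later in the cycle, rose by 0.80 ± 0.31, 1.69 ± 0.24 and 1.40 ± 0.22, and its call at day 2 (edgeR adjusted p = 0.0449) was lost on leaving out any 1 of 8 of the 10 libraries, all but MI replicates 4 and 5 (adjusted p up to 0.145). Cyclin E1 (Ccne1), which activates Cdk2, rose by 1.04 ± 0.33, 1.38 ± 0.24 and 0.94 ± 0.27. Without MI day 2 replicate 2 its day 2 call was lost (edgeR adjusted p = 0.0581).

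Cyclin E2 (Ccne2) differed by 0.40 ± 0.23 at day 2 (edgeR adjusted p = 0.166; 0.0479 without MI day 2 replicate 4) and rose by 1.08 ± 0.14 and 1.03 ± 0.22 at days 4 and 7. Cdk4, the partner of the D-type cyclins, rose by 0.43 ± 0.10, 0.58 ± 0.09 and 0.52 ± 0.09, and Cdk2 by 0.30 ± 0.11, 0.37 ± 0.10 and 0.45 ± 0.11. Cdk6 differed by 0.09 ± 0.16 at day 2 (edgeR adjusted p = 0.68) and rose by 0.43 ± 0.16 and 0.64 ± 0.15 later, the former a call lost without 1 of sham replicates 2 and 4 and MI replicates 3 and 5 (adjusted p up to 0.111), in DESeq2 (adjusted p = 0.0595) and without the libraries with lung transcripts (adjusted p = 0.114). Per kilobase, Cdk4 exceeded Cdk6 in every group, with 25.3 ± 3.1 against 0.918 ± 0.228 CPM (SD, n = 5) in MI hearts of day 4.

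**Figure D3:**
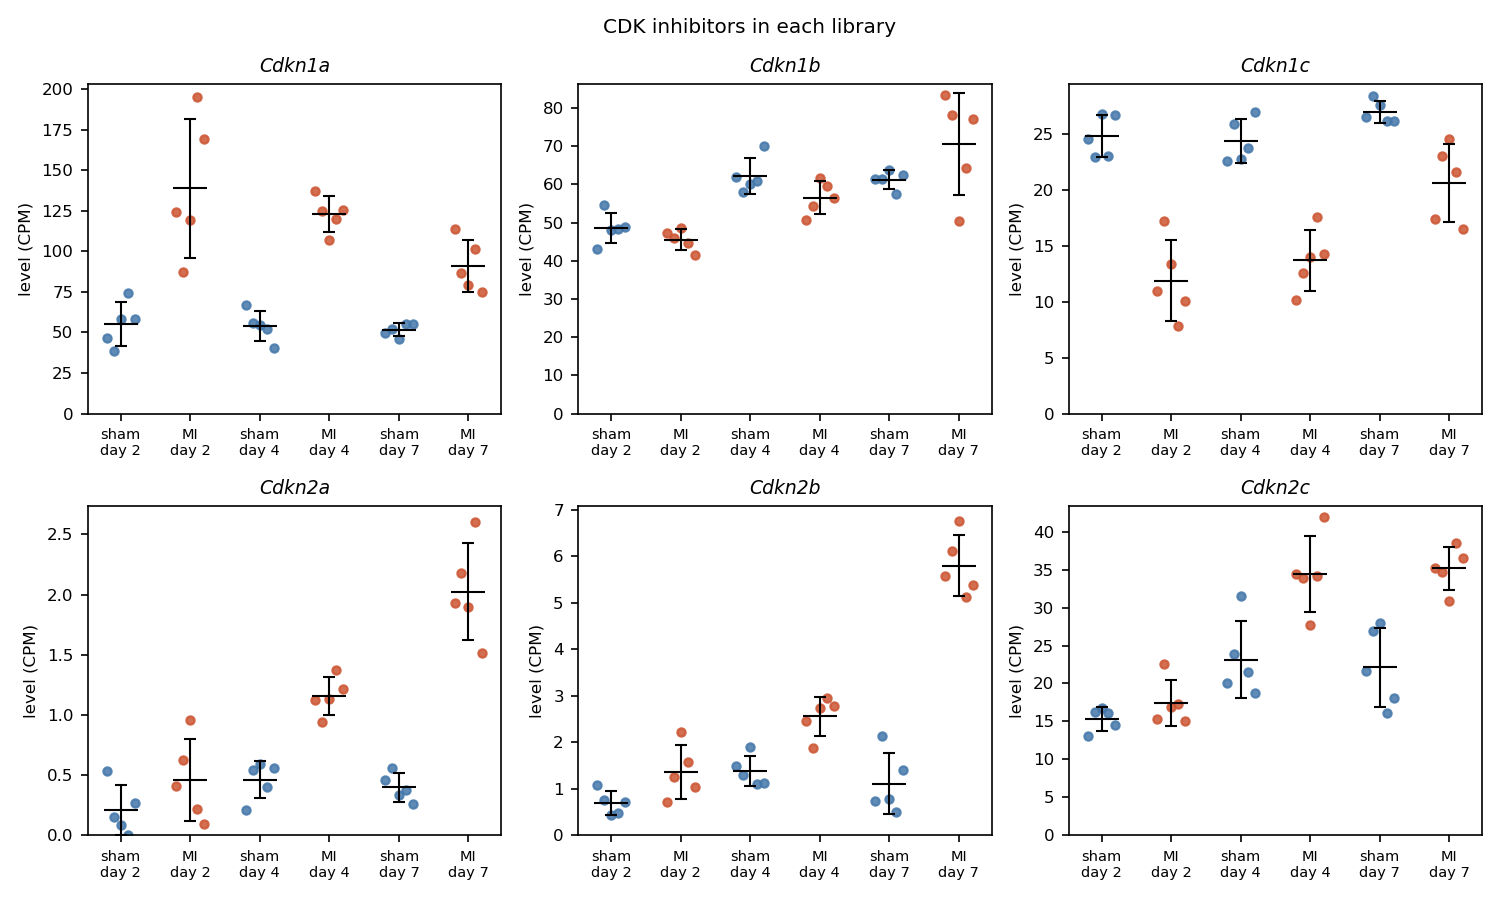
Level (CPM) of the 6 CDK inhibitor genes in each library (points; blue sham, orange MI) by group, with the mean and SD over 5 libraries (bars). Each MI library lies above the sham libraries of its day for Cdkn1a and below them for Cdkn1c, and Cdkn2b reaches 5.13 to 6.77 CPM only in MI hearts of day 7.

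The inhibitors did not move as a group. Cdkn1a, which arrests the cycle downstream of p53 and other stress signals, was higher in MI hearts at each day, and Cdkn1c, an inhibitor of the same family found in resting tissue, was lower. At day 2 Cdkn1a read 46.6, 38.9, 58.2, 74.3 and 58.1 CPM in sham and 124, 87.1, 119, 195 and 169 CPM in MI libraries. The groups did not overlap at any of the 3 days. On the log2 scale it rose by 1.25 ± 0.24, 1.01 ± 0.11 and 0.63 ± 0.12 at days 2, 4 and 7 (edgeR adjusted p = 0.00136, 4.6e-06 and 0.000591). Without the libraries with lung transcripts the day 7 value was 0.49 (edgeR adjusted p = 0.0667).

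Cdkn1c read 24.5, 22.9, 26.7, 23.0 and 26.7 CPM in sham and 10.9, 17.2, 13.4, 7.82 and 10.1 CPM in MI libraries of day 2. All MI values lay below all sham values at each day, and Cdkn1c was the only one of the 60 genes of which this was so, against 10.3%, 11.1% and 12.2% of all genes at days 2, 4 and 7. It fell by 1.16 ± 0.15, 1.01 ± 0.13 and 0.58 ± 0.11 on the log2 scale (edgeR adjusted p = 3.02e-05, 1.71e-05 and 0.000656). The MI level was higher at day 7 than at day 4, by 0.58 ± 0.14 (edgeR adjusted p = 0.00799).

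The neighbouring genes Cdkn2a and Cdkn2b, which each encode an inhibitor of Cdk4 and Cdk6, were highest in MI hearts of day 7. Cdkn2b read 0.733, 2.13, 0.770, 0.502 and 1.40 CPM in sham and 5.57, 6.12, 6.77, 5.13 and 5.39 CPM in MI libraries of that day, without overlap. The log2 fold changes were 0.90 ± 0.34, 0.72 ± 0.23 and 2.19 ± 0.30 at days 2, 4 and 7 (edgeR adjusted p = 0.0424, 0.0152 and 4.71e-05). The day 2 call was lost on leaving out any 1 of 7 of the 10 libraries, all but sham replicate 1 and MI replicates 1 and 5, with the replicate number as a block (adjusted p = 0.0747) and in DESeq2, in which the day 4 value also missed the threshold (adjusted p = 0.0655 and 0.0505). The MI level rose from day 4 to day 7 by 1.17 ± 0.25 (edgeR adjusted p = 0.00254). The change of its MI effect over these days was 1.5 ± 0.40 (adjusted p = 0.0607), which passed in DESeq2 (adjusted p = 0.0194) and, in edgeR, without sham day 7 replicate 2 or MI day 7 replicate 5 (adjusted p = 0.011 and 0.0498).

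The count of Cdkn2a joins transcripts from separate starts, so the level of its Cdk4 and Cdk6 inhibitor alone is not known. Cdkn2a was listed at 0 to 0.955 CPM in the libraries of day 2 and was below the filter on low counts at days 2 and 4, so it was not tested there. At day 7 it read 0.458, 0.561, 0.330, 0.377 and 0.255 CPM in sham and 1.93, 2.18, 1.90, 2.61 and 1.51 CPM in MI libraries, and it rose by 2.12 ± 0.30 (edgeR adjusted p = 6.07e-05). Cdkn2c, another inhibitor of Cdk4 and Cdk6, differed by 0.09 ± 0.12 at day 2 (edgeR adjusted p = 0.536) and rose by 0.40 ± 0.13 and 0.47 ± 0.14 at days 4 and 7. The day 4 call for Cdkn2c was lost without sham day 4 replicate 5 (edgeR adjusted p = 0.0514). Cdkn1b, which holds resting cells out of the cycle, fell at day 4, by 0.32 ± 0.08 (edgeR adjusted p = 0.00518), a call lost with library totals only (-0.14, adjusted p = 0.16), with differences of -0.19 ± 0.08 and 0.01 ± 0.12 at days 2 and 7 (adjusted p = 0.0562 and 0.948). It passed the threshold at day 2 in DESeq2 (adjusted p = 0.0417), with median-ratio factors, and without sham replicate 1 or MI replicate 3 of that day (edgeR adjusted p = 0.0495, 0.024 and 0.0415).

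Of the 16 replication genes, 14 rose at day 2 and 15 at days 4 and 7, and 1, Gmnn, fell at each day with TMM factors and at none with library totals only. The median log2 fold change was 0.90, 1.58 and 1.23, and no value of the 15 rising genes overlapped between the groups at days 4 and 7. The 6 subunits of the MCM helicase, which unwinds DNA at the fork, rose at all 3 days. Mcm5 read 7.28, 8.06, 5.21, 6.10 and 4.76 CPM in sham and 21.4, 32.2, 15.6, 10.9 and 11.9 CPM in MI libraries of day 2. At day 4 its MI libraries had 35.5, 33.2, 32.9, 39.6 and 45.0 CPM and its sham libraries 5.73 to 11.2 CPM, and at day 7 the MI libraries had 14.3 to 28 CPM. Its log2 fold changes, 1.44 ± 0.27, 1.98 ± 0.16 and 1.27 ± 0.19, were the largest of the MCM genes at days 2 and 4 (edgeR adjusted p = 0.00071, 2.64e-07 and 9.66e-05).

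Mcm2, Mcm4 and Mcm7 changed least of the MCM genes, with 0.50, 0.44 and 0.54 at day 2 and 0.99, 1.07 and 1.02 at day 4. The day 2 call of Mcm4 was lost without sham replicate 5, MI replicate 1 or MI replicate 2 (edgeR adjusted p up to 0.0708), and its day 7 call (0.79) without the libraries with lung transcripts (adjusted p = 0.145). Cdc6, Cdt1 and Gins2, which load or activate the helicase, rose by 1.46, 1.44 and 1.64 at day 2, by 1.98, 1.78 and 2.29 at day 4 and by 1.60, 1.67 and 2.29 at day 7. Uhrf1, which is needed for DNA methylation to be copied onto new strands, had the largest change of the class at day 2, 1.75 ± 0.30 (edgeR adjusted p = 0.00037). It rose by 2.2 ± 0.18 and 2.08 ± 0.22 later.

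Of the enzymes that make nucleotides, thymidylate synthase (Tyms) rose by 1.33 ± 0.21, 2.43 ± 0.19 and 1.83 ± 0.23, the largest change of the class at day 4 (5.39-fold; edgeR adjusted p = 1.95e-07). The small subunit of ribonucleotide reductase, Rrm2, rose by 1.11 ± 0.34, 2.06 ± 0.17 and 2.01 ± 0.22, but at day 2 not when genes of low counts were kept (edgeR adjusted p = 0.0752). The large subunit, Rrm1, differed by 0.40 ± 0.19 at day 2 and missed the threshold (edgeR adjusted p = 0.096). It passed with the replicate number as a block (adjusted p = 0.00401) and without sham day 2 replicate 2 (adjusted p = 0.0264), and it rose by 1.05 and 0.99 at days 4 and 7. Thymidine kinase (Tk1) rose by 0.70 ± 0.24, 1.51 ± 0.16 and 1.20 ± 0.16, and its day 2 call was lost without 1 of sham replicates 3 and 4 and MI replicates 1, 2 and 3 of that day (edgeR adjusted p up to 0.0958). Pcna, the clamp that holds polymerases on DNA, rose by 0.48 ± 0.12, 0.69 ± 0.10 and 0.59 ± 0.13, the smallest rise of the class at days 4 and 7.

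Gmnn encodes geminin, which blocks Cdt1 after an origin has fired, and it went against its class. It read 55.3, 50.9, 74.4, 52.7 and 59.9 CPM in sham and 50.1, 52.8, 55.5, 37.7 and 49.4 CPM in MI libraries of day 2, so the groups overlapped. It fell by 0.35 ± 0.12, 0.39 ± 0.13 and 0.35 ± 0.13 on the log2 scale (edgeR adjusted p = 0.0219, 0.0246 and 0.0338). These calls were lost on leaving out any 1 of 2, 4 and 6 of the 10 libraries of days 2, 4 and 7 (edgeR adjusted p up to 0.0847). These were sham replicate 3 and MI replicate 4 of day 2, sham replicates 2 and 4 and MI replicates 3 and 5 of day 4, and sham replicates 3, 4 and 5 and MI replicates 2, 3 and 4 of day 7. With library totals only none of the 3 falls was called (-0.26, -0.20 and -0.16; edgeR adjusted p = 0.088, 0.171 and 0.287). Per kilobase, Gmnn had the highest level of the 44 replication and mitosis genes in all 6 groups, 40.0 ± 6.4 CPM (SD, n = 5) in sham hearts of day 2, where Pcna followed with 9.22 ± 1.05 and Cenpa with 5.43 ± 0.96.

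All 14 regulators of mitosis rose at each of the 3 days, with median log2 fold changes of 1.47, 2.63 and 2.28. Cyclin A2 (Ccna2), active in S phase and early mitosis, read 4.80, 6.39, 2.39, 4.63 and 2.12 CPM in sham and 19.1, 25, 12.8, 6.18 and 8.75 CPM in MI libraries of day 2. At day 4 it read 5.30, 4.62, 6.12, 3.62 and 2.55 CPM in sham and 36.0, 32.2, 24.8, 38.8 and 45.6 CPM in MI libraries. The groups overlapped at day 2, where MI replicate 4 lay below sham replicate 2, and were apart at day 4. Its log2 fold changes were 1.70 ± 0.39, 2.82 ± 0.20 and 2.29 ± 0.25 (edgeR adjusted p = 0.00377, 1.32e-07 and 1.11e-05), and the 7.08-fold difference at day 4 was the largest of the 60 genes.

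Cdk1, the kinase that starts mitosis and whose promoter is printed above, had the largest change of the 60 genes at day 2. It read 3.82, 4.03, 2.99, 2.47 and 1.59 CPM in sham and 13.9, 19.8, 10.2, 5.26 and 7.36 CPM in MI libraries of day 2, without overlap. Its log2 fold changes were 1.81 ± 0.33, 2.68 ± 0.22 and 2.68 ± 0.24 (edgeR adjusted p = 0.000692, 4.13e-07 and 3.51e-06). Its partners Ccnb1 and Ccnb2 rose by 1.46 and 1.30 at day 2 and by 2.72 and 2.52 at day 4. Ccnb1 had the largest change of the class at day 7, 2.80 ± 0.31, from sham levels of 0.251 to 0.880 CPM.

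Of the mitotic transcription factors, Foxm1 read 3.81, 1.83, 3.06, 1.61 and 2.22 CPM in sham and 21.5, 19.1, 16.1, 19.1 and 23.2 CPM in MI libraries of day 4, which was 2.81 ± 0.19 on the log2 scale (edgeR adjusted p = 7.88e-08), against 1.36 ± 0.34 at day 2 and 2.0 ± 0.24 at day 7. Mybl2 rose by 1.80 ± 0.47, 2.78 ± 0.35 and 2.38 ± 0.41, from sham levels that reached 0 counts in 1 library of day 7. Among the kinases, Plk1 and Aurkb, which act on spindle and chromosomes, rose by 1.58 and 1.43 at day 2, by 2.60 and 2.34 at day 4 and by 2.55 and 2.11 at day 7, but Aurkb at day 2 not when genes of low counts were kept (edgeR adjusted p = 0.063). Aurka, which acts at the spindle poles, rose by 1.03 ± 0.26, 2.44 ± 0.20 and 2.17 ± 0.25.

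The checkpoint genes Bub1, Bub1b and Mad2l1, which hold a cell in mitosis until chromosomes are attached, rose by 1.73, 1.48 and 0.69 at day 2, by 2.80, 2.05 and 1.56 at day 4 and by 2.37, 2.34 and 1.45 at day 7. Mad2l1 had the smallest change of the mitotic regulators at each day. Cdc20 and Ube2c, which serve the ligase complex that ends mitosis, rose by 1.24 and 1.53 at day 2 and by 2.18 and 2.66 at day 4. Ube2c overlaps Tnnc2, a gene of fast muscle, on the opposite strand, as 19 of the 60 genes overlap some gene there. The strand setting of the counting is not given in the sources used here, so that reads of such pairs may not have been told apart.

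Of the 14 genes of chromosomes, spindle and cytokinesis, 11 rose at day 2 and 12 at days 4 and 7, with medians of 1.12, 2.33 and 2.34. Mki67, whose protein coats mitotic chromosomes and marks cycling cells, read 9.86, 12.2, 4.44, 7.18 and 4.32 CPM in sham and 22.7, 28.1, 17.7, 11.2 and 10.4 CPM in MI libraries of day 2. At day 4 it read 11.8, 9.24, 26.7, 8.65 and 10.7 CPM in sham and 77.3, 69.2, 76.6, 50.5 and 122 CPM in MI libraries. The groups overlapped at day 2 but not at day 4, although sham replicate 3, with lung transcripts, stood above the other sham libraries. Its log2 fold changes were 1.14 ± 0.33, 2.40 ± 0.33 and 2.63 ± 0.17 (edgeR adjusted p = 0.0131, 0.000162 and 3.67e-07), the first not past the threshold when genes of low counts were kept (adjusted p = 0.0567).

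Top2a, which untangles DNA before chromosomes part, rose by 1.21 ± 0.36, 2.5 ± 0.21 and 2.47 ± 0.26. Its day 2 call was lost without sham day 2 replicate 3 (edgeR adjusted p = 0.0508) and when genes of low counts were kept (adjusted p = 0.0654). Birc5, part of the chromosomal passenger complex with Aurkb, rose by 1.79 ± 0.32, 2.62 ± 0.21 and 2.48 ± 0.25, the largest change of the class at day 2 (edgeR adjusted p = 0.000439). Cenpe, a motor at the kinetochore, had the largest at days 4 and 7, 2.66 ± 0.30 and 2.68 ± 0.23.

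At the spindle midzone, Prc1, which bundles microtubules between the parting chromosomes and whose promoter is printed above, read 5.40, 5.91, 6.59, 5.33 and 5.11 CPM in sham and 38.0, 36.5, 29.2, 36.5 and 53.0 CPM in MI libraries of day 4. It rose by 1.14 ± 0.29, 2.59 ± 0.15 and 2.43 ± 0.18 (edgeR adjusted p = 0.00588, 1.87e-08 and 1.02e-06). Anln and Ect2, which organise the contractile ring, rose by 0.98 ± 0.24 and 1.20 ± 0.28 at day 2, by 2.26 ± 0.24 and 2.55 ± 0.25 at day 4 and by 2.13 ± 0.16 and 2.44 ± 0.34 at day 7. Kif20a, a motor of the midzone, differed by 0.67 ± 0.32 at day 2 (edgeR adjusted p = 0.109; 0.0189 without MI day 2 replicate 4) and rose by 2.17 ± 0.20 and 2.05 ± 0.22 later. Kif11, Kif23, Tpx2 and Nusap1 rose at all 3 days. At day 2 the call of Tpx2 was lost without sham replicate 3 (edgeR adjusted p = 0.0516) and that of Kif23 without sham replicates 3, 4 or 5 or MI replicates 1 or 2 (adjusted p up to 0.0956). Neither passed when genes of low counts were kept (adjusted p = 0.0831 and 0.12).

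Cenpa and Cenpf were called at no day in MI against sham with TMM factors. Cenpa, the histone that marks centromeres, read 31.4, 24.9, 38.3, 28 and 36.6 CPM in sham and 34.4, 45.9, 32.7, 26.3 and 29.7 CPM in MI libraries of day 2, and its log2 differences were -0.01 ± 0.14, 0.20 ± 0.11 and 0.20 ± 0.13 (edgeR adjusted p = 0.957, 0.134 and 0.21). Without sham day 4 replicate 4 the day 4 value passed the threshold (adjusted p = 0.0255). With library totals only Cenpa was called higher at days 4 and 7 (0.39 and 0.39; edgeR adjusted p = 0.00624 and 0.0168), and its day 2 difference was 0.09, the sign of the mean CPM (33.8 in MI and 31.8 in sham). Cenpf, a large kinetochore protein made late in the cycle, read 21.6, 25.1, 11.8, 23.7 and 23.4 CPM in sham and 7.82, 24.8, 14.4, 6.68 and 8.57 CPM in MI libraries of day 2. MI replicate 2 lay within the range of the sham libraries, and 3 of the other MI libraries lay below all of them. Its log2 difference at day 2 was -0.86 ± 0.33 (edgeR adjusted p = 0.0525). It passed the threshold, as lower, in the fit of all 30 libraries (adjusted p = 0.0097) and without sham replicate 3, MI replicate 2 or MI replicate 3 of day 2 (adjusted p = 0.0331, 0.000944 and 0.0461). At days 4 and 7 the differences were 0.07 ± 0.19 and -0.07 ± 0.15 (adjusted p = 0.793 and 0.721). At day 7 the mean CPM was the other way, 26.6 in MI and 24.4 in sham libraries, and with library totals only the difference was 0.13 (adjusted p = 0.486). Cenpf overlaps another annotated gene on the opposite strand.

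**Figure D4:**
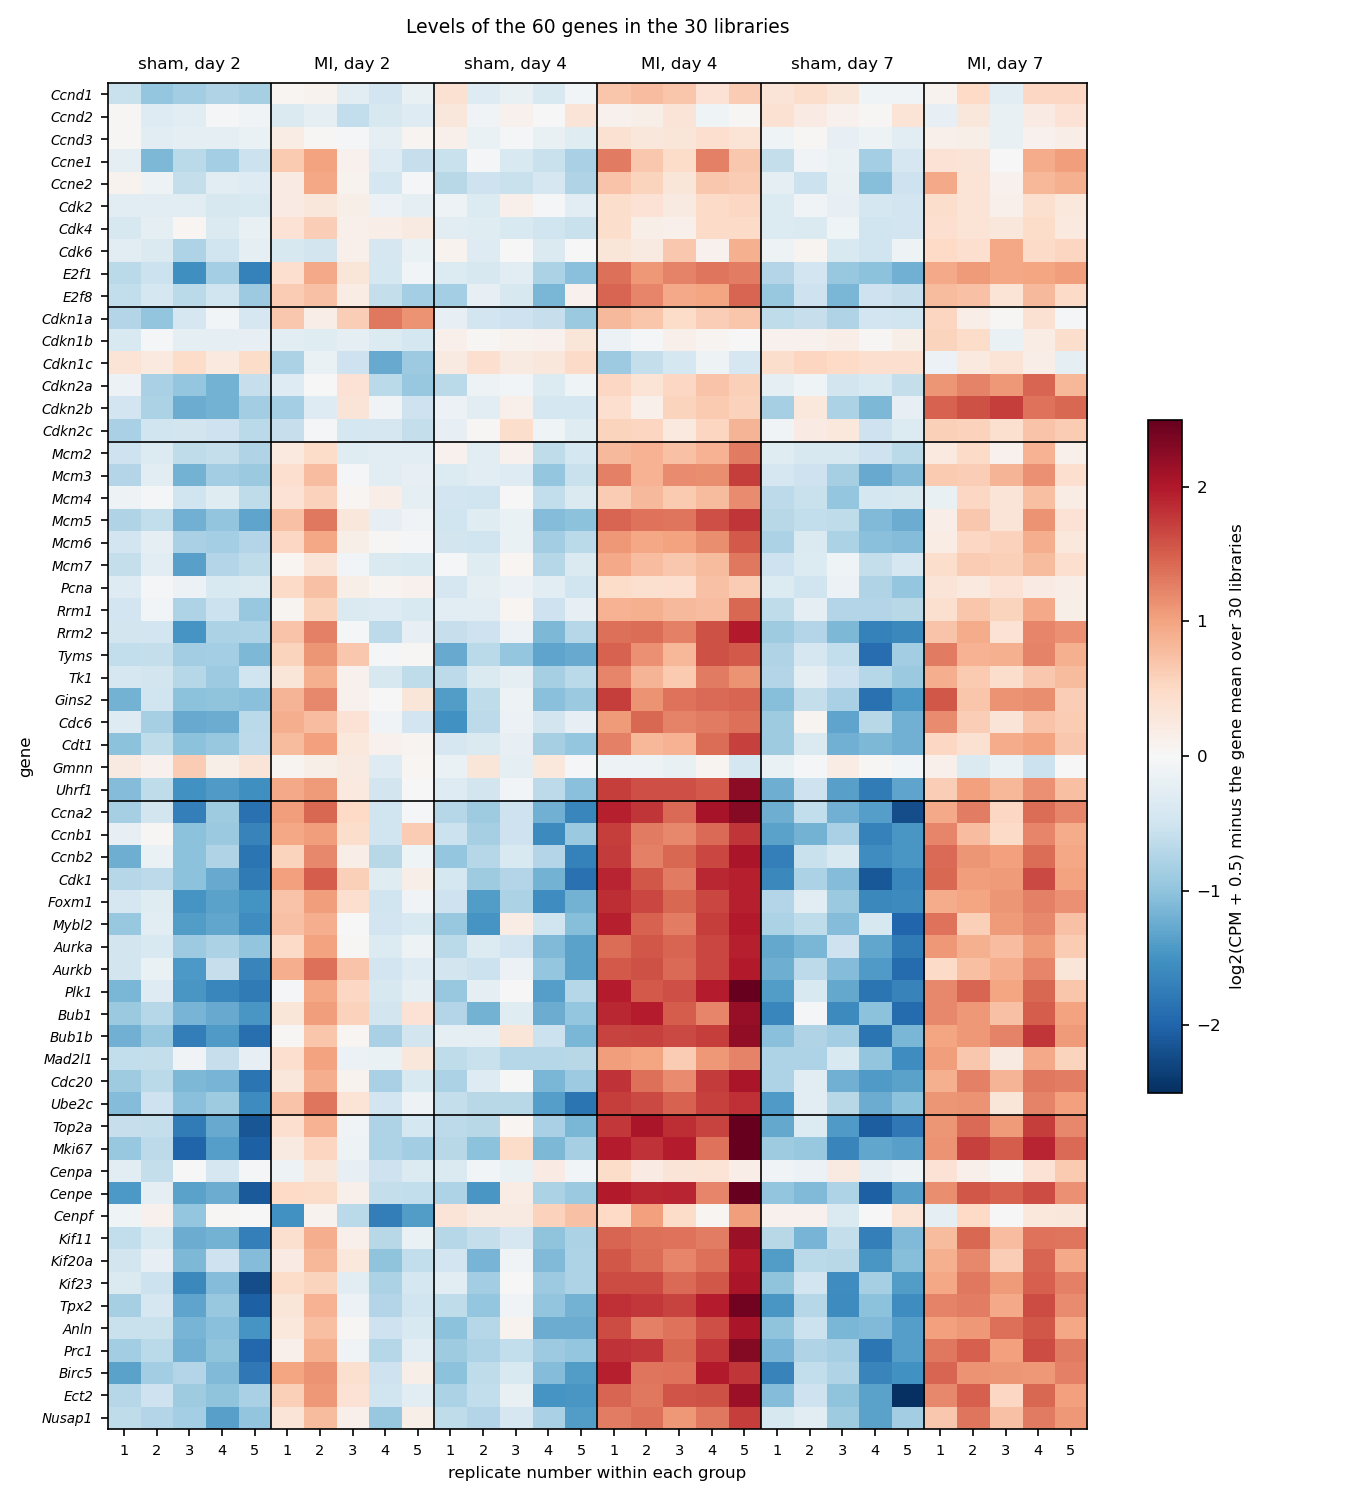
Level of each of the 60 genes (rows, by class) in the 30 libraries (columns, by group and replicate), as log2(CPM + 0.5) minus the mean of the gene, with colours ending at 2.5 in either direction. Replication and mitosis genes are highest in the MI libraries of day 4, and within MI day 2 they are highest in replicate 2 and lowest in replicates 4 and 5.

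The libraries of a group differed in these genes together. Of the 44 replication and mitosis genes, 41 were highest in replicate 2 among the MI libraries of day 2, and 34 were lowest in replicate 4. Their summed level was 597, 809, 491, 348 and 402 CPM in MI replicates 1 to 5 of day 2, against 277 to 375 CPM in sham libraries, so that replicate 4 lay within the sham range. In MI hearts of day 4, 36 of the 44 genes were highest in replicate 5, whose sum was 1498 CPM against 1006 to 1144 CPM in the other MI libraries. At day 7, 27 of the 44 were highest in replicate 4, the library with transcripts of fast skeletal muscle. Among sham libraries, replicate 2 of day 2 was highest for 34 of the 44 genes, replicate 3 of day 4 for 33 and replicate 2 of day 7 for 28. The last 2 held lung transcripts, and the first held none (0 CPM).

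Cdkn1a ran the other way within MI day 2: it read 87.1 CPM in replicate 2, where the 44 genes summed highest, and 195 and 169 CPM in replicates 4 and 5, where they summed lowest. Leukocyte and macrophage markers were also highest in replicate 2 and lowest in replicate 4, with sums of 886, 1177, 866, 596 and 890 CPM in replicates 1 to 5. They were not alone in this: sums of fibroblast and endothelial markers were also highest in replicate 2 (1459 and 1359 CPM). Sums of neutrophil markers and of myeloid and erythroid precursor markers were lowest there (175 and 231 CPM). Activated fibroblast markers were highest in replicate 1 (1252 CPM). With 5 libraries no test of these orders was made.

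**Figure D5:**
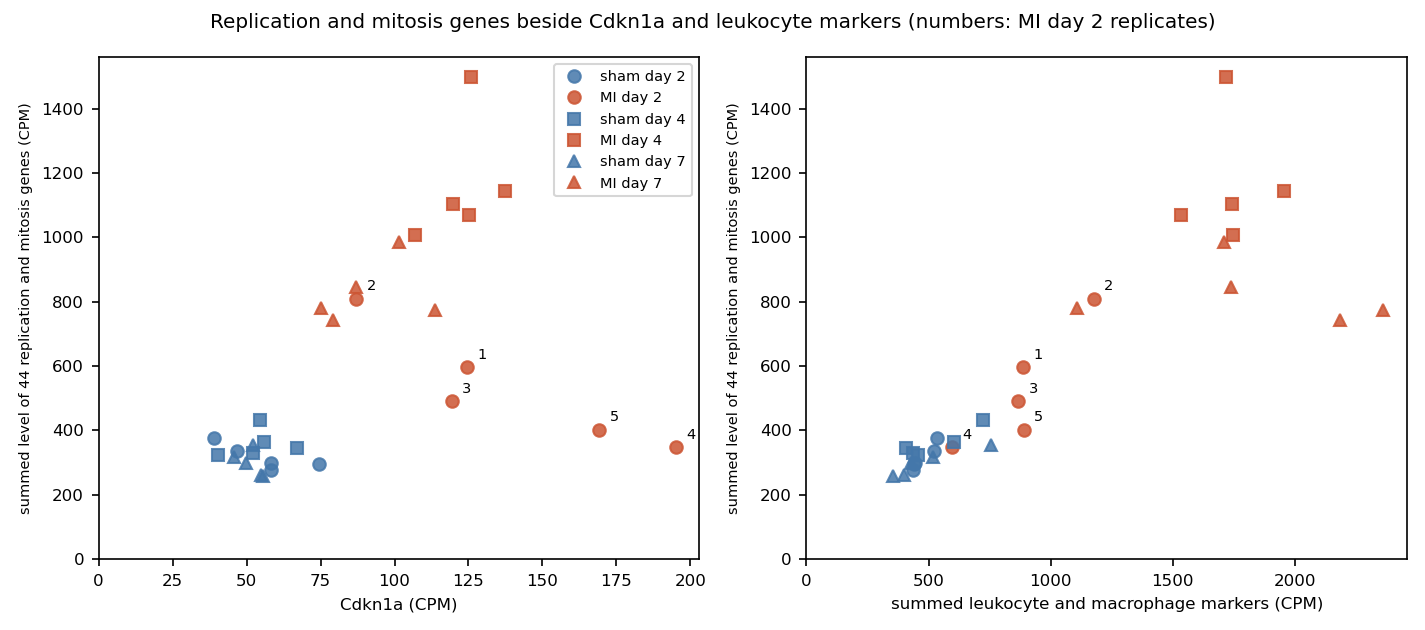
Summed level of the 44 replication and mitosis genes (CPM, vertical) against Cdkn1a (left) and against the summed leukocyte and macrophage markers (right), both in CPM, for each of the 30 libraries; colours give MI or sham, shapes the day, and numbers the replicates of MI day 2. Within MI day 2 the library with the lowest Cdkn1a, replicate 2 at 87.1 CPM, has the highest sum, 809 CPM, and replicate 4 the reverse. Other marker lists are not drawn.

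Markers of other cell types also differed between MI and sham hearts, but not all in the same direction or at the same days. Their part in the results above was not tested. The counts of markers are to be read against 24.1%, 27.5% and 28.4% of all genes that rose at days 2, 4 and 7. The shares of all genes that fell were 22.2%, 25.2% and 26.6%. Of the 8 leukocyte and macrophage markers (Ptprc, Cd68, Adgre1, Csf1r, Lyz2, Itgam, Cd14 and Fcgr1) 7, 8 and 8 rose at days 2, 4 and 7. They summed to 434 to 533 CPM in sham and 596 to 1177 CPM in MI libraries of day 2, to 406 to 724 and 1535 to 1957 CPM at day 4, and to 355 to 756 and 1106 to 2358 CPM at day 7. Of the 6 markers of activated fibroblasts (Postn, Cthrc1, Tnc, Lox, Fn1 and Col1a1) 5, 6 and 6 rose. They summed to 309 to 756 CPM in sham and 673 to 1252 CPM in MI libraries of day 2, to 842 to 1923 and 3512 to 7568 CPM at day 4, and to 619 to 1557 and 4963 to 11562 CPM at day 7. Of the 6 cardiomyocyte markers 4, 6 and 6 fell, with 30870 to 38771 CPM at day 4 against 49996 to 58322 CPM in sham libraries.

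Neutrophil markers (S100a8, S100a9, Cxcr2, Csf3r and Retnlg) rose, all 5 at day 2, 4 of 4 tested at day 4 and 3 of 3 at day 7. They summed to 8.62 to 16.5 CPM in sham and 175 to 643 CPM in MI libraries of day 2, to 4.66 to 11.0 and 31.9 to 217 CPM at day 4, and to 1.91 to 8.63 and 16.4 to 256 CPM at day 7. Of 8 markers of myeloid and erythroid precursors, 2 of 3 tested rose at day 2, 1 of 5 at day 4 and 3 of 3 at day 7. They summed to 95 to 222 CPM in sham and 231 to 845 CPM in MI libraries of day 2, to 498 to 2355 and 761 to 1823 CPM at day 4, and to 556 to 1111 and 1245 to 4113 CPM at day 7. The sham sums of days 2 and 4 did not overlap. Of this list the globin genes Hba-a1 and Hbb-bs made up most, and Elane and Ctsg had means of at most 0.136 CPM in each group. Fast skeletal muscle markers summed to 221 to 490 CPM in sham and 819 to 1041 CPM in MI libraries of day 4, nearly all of it Acta1, which heart muscle also makes, and Myh1 and Myh4 had means under 0.05 CPM there. Acta1 rose at days 2 and 4, by 0.58 and 1.22. Of 5 fibroblast markers 0, 1 and 4 rose and 3, 2 and 1 fell at days 2, 4 and 7. Of 6 endothelial markers 1, 1 and 0 rose and 2 fell at each day. Of 5 markers of pericytes and smooth muscle 0, 0 and 1 rose and 4, 3 and 2 fell. The endothelial counts, and the 1 of 5 precursor markers that rose at day 4, were near the shares of all genes.

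The question whether the MI effect itself changed between days was tested in 1 fit of all 30 libraries. From day 2 to day 4 it grew for 7 of the 60 genes, against 2.51% of all genes, and shrank for none (0 at an unadjusted p under 0.05, and 0 in DESeq2, against 2.29% of all genes). The 7 were Prc1 (1.46 ± 0.33; edgeR adjusted p = 0.00995), Aurka (1.42 ± 0.35; adjusted p = 0.0151), Tpx2 (1.56 ± 0.39; adjusted p = 0.0166), Anln (1.30 ± 0.33; adjusted p = 0.0215), Kif20a (1.51 ± 0.39; adjusted p = 0.0217), Foxm1 (1.45 ± 0.41; adjusted p = 0.034) and Tyms (1.10 ± 0.32; adjusted p = 0.0375). The call of Foxm1 was also lost without the libraries with lung transcripts (adjusted p = 0.0655), and those of Foxm1, Tyms and Anln when genes of low counts were kept (adjusted p = 0.0684, 0.0513 and 0.0522). Aurka and Prc1 were called without each library in turn, and Tpx2 in all but 1 case, sham day 2 replicate 2 (adjusted p = 0.0575). Kif20a, Anln, Foxm1 and Tyms lost the call on leaving out any 1 of 4, 5, 10 and 12 libraries (adjusted p up to 0.101), in each case among others sham day 2 replicate 2 and sham day 4 replicate 4 and MI day 4 replicate 5.

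The number called depended on single libraries. It was 26 without MI day 2 replicate 2, the library with the highest sum of that group, and 12 without sham day 4 replicate 3. It was 2 without sham day 2 replicate 2, 3 without sham day 4 replicate 4 or MI day 4 replicate 5, and 4 without sham day 2 replicate 1 or MI day 2 replicate 4. DESeq2 called 11, and edgeR with no filter on low counts 4.

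Within MI hearts, 52 of the 60 genes were higher at day 4 than at day 2, against 24% of all genes, and none was lower (1 at an unadjusted p under 0.05, and 0 in DESeq2, against 22% of all genes). The 8 not called were Ccne1, Ccne2, Cdk4, Cdkn1a, Cdkn1b, Cdkn1c, Pcna and Gmnn. The largest differences by class were those of E2f8 (1.09 ± 0.25) and E2f1 (0.92 ± 0.20), of the inhibitors Cdkn2a (1.25 ± 0.40) and Cdkn2c (0.88 ± 0.13), of Uhrf1 (1.26 ± 0.23) and Rrm2 (1.12 ± 0.25), of Bub1b (1.81 ± 0.24) and Plk1 (1.71 ± 0.30), and of Mki67 (2.04 ± 0.29) and Cenpe (1.94 ± 0.30). Cenpf, which was not called in MI against sham, was also higher, by 1.5 ± 0.27 (edgeR adjusted p = 4.9e-05). Among sham hearts 6 of the 60 genes were higher at day 4 than at day 2, a share near the 11.7% of all genes. They were Ccnd1 (0.68), Cdkn1b (0.34), Cdkn2b (0.97), Cdkn2c (0.56), Bub1b (1.23) and Uhrf1 (0.81). None was lower (1 at an unadjusted p under 0.05, and 0 in DESeq2, against 12.7% of all genes). Without the libraries with lung transcripts 3 were higher, and without sham day 2 replicate 2 the number was 10.

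Days 4 and 7 share a run identifier. The mean MI level was highest at day 4 for 42 of the 44 replication and mitosis genes, and the mean sham level was also highest at that day for 31 of the 44. These 2 counts take in day 2, which carries another run identifier, so that run and day cannot be told apart in them. In MI hearts 9 of the 60 genes were lower at day 7 than at day 4, against 6.29% of all genes, among them Mcm2, Mcm4, Mcm5, Mcm6 and Uhrf1. Mcm5 fell from 32.9 to 45.0 CPM to 14.3 to 28 CPM, without overlap, by 0.97 ± 0.21 on the log2 scale (edgeR adjusted p = 0.00345). Uhrf1 fell by 0.91 ± 0.23 (adjusted p = 0.00821), Mcm6 by 0.66 ± 0.16 (adjusted p = 0.00632), Aurkb by 0.92 ± 0.30 (adjusted p = 0.0374) and Aurka by 0.76 ± 0.22 (adjusted p = 0.019), all in edgeR. Ccna2 and Ccnd3 were the other two. The calls of Ccna2, Aurkb, Mcm4 and Ccnd3 were lost on leaving out any 1 of 11, 8, 5 and 1 libraries, MI day 7 replicate 3 in each case (adjusted p up to 0.108). The count was 16 without MI day 2 replicate 2, 14 without MI day 7 replicate 4 and 5 without MI day 7 replicate 3, and DESeq2, median-ratio factors and a fit of the 10 libraries compared each gave 14. That fit did not call Mcm2, Mcm4 and Ccnd3, which are among the 9 (edgeR adjusted p = 0.0522, 0.0854 and 0.0729). Ccna2 and Aurkb were not called without the libraries with lung transcripts (adjusted p = 0.0701 and 0.0714), nor when genes of low counts were kept (adjusted p = 0.0859 and 0.0607). With library totals only Mcm4, Ccna2 and Aurkb were not called (adjusted p = 0.0505, 0.0615 and 0.0515).

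In MI hearts 3 of the 60 genes were higher at day 7 than at day 4, a share near the 6.26% of all genes. They were the CDK inhibitors Cdkn2b (1.17 ± 0.25), Cdkn1c (0.58 ± 0.14) and Cdkn1b (0.31 ± 0.09; edgeR adjusted p = 0.0273). The call of Cdkn1b was lost without MI day 4 replicates 1, 2 or 5 or MI day 7 replicates 1, 2 or 5 (adjusted p up to 0.105), without the libraries with lung transcripts (adjusted p = 0.0919), in the fit of the 10 libraries (adjusted p = 0.147) and when genes of low counts were kept (adjusted p = 0.0767). Among sham hearts no gene of the 60 was called between these days in either direction (edgeR, against 0.0515% of all genes higher and 0.0708% lower; 0 higher and 5 lower at an unadjusted p under 0.05; 0 in DESeq2, which gave no adjusted p for 36). The change of the MI effect from day 4 to day 7 was called for none of the 60 genes in edgeR, against 0.702% of all genes higher and 0.315% lower. At an unadjusted p under 0.05, 3 were higher and 3 lower, and DESeq2 called 1 higher and 0 lower. In edgeR 1 gene was called higher without sham day 7 replicate 2, MI day 7 replicate 3 or MI day 7 replicate 5, and 1 lower without sham day 4 replicate 1. For Mcm5 the change was -0.69 ± 0.33 (edgeR adjusted p = 0.332).

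The MI effect was more positive at day 7 than at day 2 for 13 genes, against 10.1% of all genes, and less so for Ccnd1, against 9.11%. The 13 were Cdkn1c, Cdkn2b, Aurka, Mad2l1, Top2a, Cenpe, Kif23, Ect2, Prc1 (1.31 ± 0.34; edgeR adjusted p = 0.00656), Tpx2 (1.43 ± 0.40; adjusted p = 0.0115), Kif20a (1.41 ± 0.40; adjusted p = 0.0128), Anln (1.19 ± 0.34; adjusted p = 0.0136) and Mki67 (1.52 ± 0.44; adjusted p = 0.0165). Of the inhibitors, the rise of Cdkn2b became larger, by 1.33 ± 0.43 (edgeR adjusted p = 0.0275), and the fall of Cdkn1c smaller, by 0.61 ± 0.20 (adjusted p = 0.0298), calls that were lost on leaving out any 1 of 7 and 6 libraries (adjusted p up to 0.083), MI day 2 replicates 1 and 5 in both, and without the libraries with lung transcripts (adjusted p = 0.0542 and 0.137). The differences of Aurka, Mad2l1, Top2a, Cenpe, Kif23 and Ect2 were 1.17, 0.79, 1.29, 1.44, 1.24 and 1.26. Their calls were lost on leaving out any 1 of 2, 25, 20, 8, 11 and 22 of the 30 libraries (edgeR adjusted p up to 0.163), and that of Mki67 without 1. For Mki67, Aurka, Mad2l1, Top2a, Cenpe, Kif23 and Ect2 these included sham day 2 replicate 2. With median-ratio factors Mad2l1, Top2a and Ect2 were not called (edgeR adjusted p = 0.0614, 0.051 and 0.0558). Mad2l1 also missed the threshold with a filter of at least 1 CPM and with the replicate block (edgeR adjusted p = 0.0506 and 0.058). In DESeq2 its adjusted p was 0.0539. Without the libraries with lung transcripts Kif23 and Tpx2 were not called either (adjusted p = 0.122 and 0.0676), nor was Ect2 with library totals only (adjusted p = 0.0536). The count of 13 was 23 without MI day 2 replicate 2, 8 without sham day 7 replicates 1 or 4, and 7 without MI day 2 replicate 4, sham day 7 replicate 5, or MI day 7 replicates 2 or 4. It was 6 without MI day 2 replicate 5 and 5 without sham day 2 replicate 2. With no filter on low counts edgeR called 6.

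Among 145 further cell cycle genes outside the 60, more rose than fell. At day 2, 78 of 136 tested rose and 13 fell, against 24.1% and 22.2% of all genes, at day 4, 104 of 144 rose and 12 fell, against 27.5% and 25.2%, and at day 7, 90 of 142 rose and 14 fell, against 28.4% and 26.6%. The counts of the lists below are to be read against the same shares. Their median log2 fold changes were 0.59, 1.23 and 1.06. Of the 25 genes of mitotic kinesins, spindle and cytokinesis, 22, 24 and 24 rose and 1, 0 and 0 fell. The largest changes of this list were those of the motor Kif14 at day 2 (1.90 ± 0.37), the spindle protein Hmmr at day 4 (3.05 ± 0.20) and the motor Kif2c at day 7 (2.88 ± 0.28), and Ckap5, which binds microtubule ends, fell by 0.45 ± 0.14 at day 2. Of the 23 genes of the kinetochore and its checkpoint, 16, 19 and 15 rose and 1, 0 and 0 fell. Cenpm led at day 2 (1.71 ± 0.36), Nuf2, of the complex that grips microtubules, at day 4 (3.01 ± 0.16) and Knl1 at day 7 (2.61 ± 0.26). Sgo2a, which guards centromeric cohesin, fell by 0.96 ± 0.22 at day 2.

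Of the 33 genes of origin licensing and the fork, 16, 24 and 15 rose and 2, 4 and 3 fell. The kinase gene Cdc7, which fires origins, led at day 2 (1.55 ± 0.26) and Mcm10 at days 4 and 7 (2.48 ± 0.23 and 1.79 ± 0.30). Rfc1, the large subunit of the clamp loader, fell by 0.34 ± 0.09, 0.24 ± 0.07 and 0.48 ± 0.11 at days 2, 4 and 7, and Orc5 by 0.37 ± 0.12 at day 4. Of the 13 condensin, cohesin and separase genes, 5, 7 and 8 rose, led by the condensin genes Ncaph at day 2 (1.09 ± 0.30), Ncapg at day 4 (3.01 ± 0.27) and Ncapg2 at day 7 (2.17 ± 0.15), and 2, 1 and 2 fell. Pttg1, the inhibitor of separase, fell at all 3 days, by 0.63 ± 0.09, 0.79 ± 0.13 and 0.97 ± 0.09 (edgeR adjusted p = 5.75e-05, 0.000125 and 3.85e-06).

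Of the 17 retinoblastoma and E2F factors 6 (35.3%) rose at each day and 3, 4 and 5 (17.6%, 23.5% and 29.4%) fell, shares near those of all genes. The activator E2f2 led at day 2 (1.68 ± 0.35) and E2f7, a repressor related to E2f8, at days 4 and 7 (2.28 ± 0.27 and 2.02 ± 0.30). Rbl2, which keeps cell cycle genes silent in resting cells, fell by 0.58 ± 0.07 at day 2, Lin52 by 0.61 ± 0.13 at day 4 and E2f6 by 0.80 ± 0.14 at day 7. Of the 16 other cyclins, CDK partners and phosphatases, 4 of 12, 10 of 15 and 10 of 15 tested rose and 2 fell at each day. The share that rose at day 2, 33.3%, was near the 24.1% of all genes. Fbxo5, an inhibitor of the ligase complex that ends mitosis, led at day 2 (1.27 ± 0.32), and Cdc25c, the phosphatase that activates Cdk1, at days 4 and 7 (3.40 ± 0.49 and 2.83 ± 0.53). Ccng1, a p53 target, fell by 0.52 ± 0.14, 0.54 ± 0.13 and 0.77 ± 0.17.

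Of the 18 genes of the damage checkpoint and repair 9, 14 and 12 rose and 2, 1 and 2 fell. The repair genes Rad54l, Exo1 and Rad51ap1 led at days 2, 4 and 7 (1.58 ± 0.32, 2.79 ± 0.36 and 2.45 ± 0.32). Gadd45a, another p53 target, fell by 0.94 ± 0.16, 1.11 ± 0.12 and 0.54 ± 0.18 at these days. The activity of p53 was not tested.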

How the data were processed

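Per the labels' protocols, RNA of mouse hearts was made into 30 directional libraries. The authors deposited raw counts per Ensembl gene, made with bcl2fastq 2.20.0 and featureCounts on GRCm38, per the submitters' processing notes. The sources used here do not name the aligner, the featureCounts version or whether strand was used. Symbols came from a GRCm38 annotation that names 97.3% of the identifiers.

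Groups follow the labels. MI was compared with sham in a fit of the 10 libraries of each day, and other comparisons in 1 fit of all 30, with edgeR 4.0.16 in R 4.3.3 (filterByExpr with minimum count 10 and minimum total 15, TMM factors, robust quasi-likelihood F test). Standard errors are the log2 fold change over the square root of F. The fits were tested on simulated data. Alternatives were median-ratio factors, DESeq2 1.42.0, other filters on low counts, a replicate block, other libraries in the fit, and leaving out each library or those with lung transcripts. Library totals without TMM factors were added later. No replicates held identical values. CPM values are counts over the library total.

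The members and lists were chosen with earlier results of these data known. The rule for named genes took a fixed set at each day whatever the result, the 2 called genes of each class with the largest change in each direction, those not called, called lower or not tested, and for each list of other genes the largest called change in each direction at a mean of at least 1 CPM. Further genes were named after their values were seen, and 1 symbol of the lists matched no gene. Promoters came from RefSeq (GRCm38.p6). Figures were drawn with matplotlib 3.10.9 in Python 3.11.15.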

Additional observations from a re-analysis of the deposited data

Results flagged for a closer look

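Groups of 5 values were examined for a library far from the others, in 330 cases over named genes and class sums. The 18 found are near the share of about 1 in 20 that chance gives. Genes of 1 library also varied together, so these cases are not independent. In sham hearts of day 2, Cenpf was low in replicate 3 at 11.79 CPM, with the next library at 21.59. In sham hearts of day 4, replicate 3 stood high for the sum of chromosome, spindle and cytokinesis genes (164.9 CPM), for Mki67 (26.73) and for Cenpe (5.417), and this library held lung transcripts.

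In MI hearts of day 4, replicate 5 stood high for the sum of chromosome, spindle and cytokinesis genes at 633.2 CPM, with the next library at 450.3. It also stood high for Mcm2 (33.82), Mcm4 (33.38), Rrm1 (81.51), Uhrf1 (29.22), Bub1b (30.7) and Ect2 (20.29). Replicate 4 of the same group was low for the sum of G1/S regulators, at 558.7 CPM. In sham hearts of day 7, Rrm1 (25.12) and Plk1 (2.915) were high in replicate 2 and Cenpa (43.98) in replicate 3. In MI hearts of day 7, Ccnd3 (60.4) was low and Cdk6 (18.23) high in replicate 3, and Bub1b (22.62) was high in replicate 4, the library with transcripts of fast skeletal muscle.

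The MI effect differed between days 2 and 4 for 7 of the 60 genes and between days 2 and 7 for 14, by the interaction test of edgeR, against 4.8% and 19.2% of all genes. The second share is near that of all genes. On leaving out 1 library the numbers with a larger effect ranged from 2 to 26 and from 5 to 23. Whether the flagged libraries differ beyond chance, and why, was not tested.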

How the results depend on the processing

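The numbers of genes that rose in MI hearts stayed within 1.5 times under each alternative run. They went from 39 to 48 at day 2, 52 to 54 at day 4 and 52 to 52 at day 7 on leaving out each library. The numbers that fell ran from 2 to 5, 2 to 3 and 1 to 3, and the last was 1 without the libraries with lung transcripts. Genes whose MI effect grew from day 2 to day 4 numbered 2 to 26 on leaving out each library (0 to 0 shrank), 4 with no filter and 11 in DESeq2. From day 4 to day 7 the numbers were 0 to 1 in either direction, and 1 higher in DESeq2. From day 2 to day 7 the effect was more positive for 5 to 23 genes and less so for 0 to 2, for 6 and 1 with no filter and for 11 and 0 without the lung libraries. In MI hearts of day 4 against day 2, 48 to 54 were higher and 0 to 1 lower, with 1 lower in a fit of the 10 libraries. Day 7 against day 4 gave 2 to 3 higher and 5 to 16 lower, and 14 lower with median-ratio factors, in DESeq2 and in the fit of 10 libraries. In sham hearts of day 4 against day 2, 4 to 10 were higher and 0 to 0 lower, and 3 higher without the lung libraries; day 7 against day 4 gave 0 to 0. Library totals without TMM factors were added after the data were seen. Reversals of sign occurred only in values past the threshold in neither fit. On leaving out each library, Cdk6, Cdkn2c and Cenpa at day 2 ran from -0.037 to 0.143, -0.013 to 0.137 and -0.144 to 0.068, Cenpf at day 4 from -0.053 to 0.186, and Ccnd1, Ccnd3, Cdkn1b and Cenpf at day 7 from -0.152 to 0.031, -0.013 to 0.075, -0.064 to 0.113 and -0.165 to 0.020. With library totals only, Cenpa at day 2 and Ccnd1 and Cenpf at day 7 read 0.089, 0.109 and 0.131, 1 gene fell at days 4 and 7, and 0 were less positive at day 7 than at day 2. Without the lung libraries Cenpf at day 4 read -0.080, and Ccnd1 and Cdkn1b at day 7 read 0.091 and -0.050. Cdkn1b at day 7 read -0.004 with no filter, -0.003 in DESeq2 and -0.009 with the replicate block. Same-numbered libraries did not deviate together (correlations from -0.215 to 0.237), so the numbers were not taken as pairs. With the replicate block 47, 53 and 52 genes rose and 3, 3 and 2 fell in MI hearts at days 2, 4 and 7, and the calls of Cdkn2b at day 2 (0.88) and Ccnd2 at day 7 (-0.32) were lost and Rrm1 at day 2 (0.39) was gained. The block gave 7 genes whose effect grew from day 2 to day 4 and 12 lower in MI hearts from day 4 to day 7. In the 250 bases before the start, the shares of all genes with a cell cycle homology match, a CCAAT box and an E2F match were 19.6, 37.5 and 2.2%, and 43.5% of mitosis genes held the first. The single values cover named genes in MI against sham and, elsewhere, called genes with Cdkn2b and Mcm5. The cause of these differences was not tested. Depth limits genes near the limit that a count of 0 allows, such as Cdkn2a.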
